A study of Mus musculus with 22 samples.

Results

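The genes described here were the 39 of 998 genes on an imaging panel that carry the tumor necrosis factor (TNF) superfamily, the Toll-like receptors and the NF-kB pathway. They were taken by symbol: every gene whose name begins with Tnf, with Nfkb, or with Tlr and a digit, together with Rela, Nod2, Ltbr, Cd40 and Cflar. By role they were 9 ligands, 17 receptors, 8 sensors of microbial products and 5 core or modulating genes. Tnfaip6, a secreted hyaluronan-binding protein that TNF induces, entered by its name and is neither ligand nor receptor.

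The values came from CosMx spatial molecular imaging, which counts single RNA molecules by fluorescent barcodes inside segmented cells of a tissue section. The study asked how the nuclear receptors Nr4a1 and Nr4a2 act when blood stem cells emerge from the endothelium of the dorsal aorta. A single E10 embryo labelled Knockout (Nr4a1-/-Nr4a2-/-) gave 13 sections, and a single E10 wildtype embryo (Nr4a1+/+Nr4a2+/+) gave 9, so every p-value between genotypes compared 2 embryos over their sections. The study's own account gives more wildtype than knockout sections, the opposite of the labels, and groups here follow the labels, so directions between genotypes carry that doubt. The labels call the tissue fresh frozen in one field and paraffin embedded in another, and the design text names a human panel although the gene names are those of mouse.

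TNF superfamily ligands are membrane or secreted trimers that bind matching receptors. Several of these receptors carry a death domain, and most pass their signal to NF-kB. Toll-like receptors and Nod2 sense microbial products and reach the same transcription factors. Nfkb1 and Rela encode subunits of NF-kB, and Nfkbia encodes the inhibitor that holds NF-kB in the cytoplasm and is itself switched on by NF-kB. In zebrafish and mouse embryos, TNF, Toll-like receptor and NF-kB signals have been tied to the emergence of blood stem cells from the aorta.

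Values were counted in 37570 cells, and section totals ran from 169027 to 887896 transcripts. A rate is the number of transcripts of a gene per 10000 transcripts of the same cells, leaving out of the total the 14 genes that gate the cell groups. The median cell of a section held 87 to 332 transcripts in the knockout-labelled embryo and 171 to 224 in wildtype. Of 231 section pairs, 6 shared cell names (at most 908 names), and these names consist of a cell number and a field of view. No tables were identical. The targeted genes did not mark the knockout label: Nr4a1 stood at 2.33 ± 0.260 (SD, n = 13) against 2.865 ± 0.280 (n = 9), with a fitted log2 fold change of -0.05 (SE 0.07, edgeR adjusted p = 0.716), and Nr4a2 at 4.331 ± 0.643 against 5.07 ± 0.863, with 0.03 (SE 0.09, edgeR adjusted p = 0.860). In wildtype both were below 5.941, the wildtype mean of the 26 genes with no known source here that are introduced below. A loss of either gene may therefore not show in these rates. Where the probes lie relative to the deletion was not given in the sources used here, and directions between genotypes below refer to the label alone.

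Most genes of the family were near the level of genes with no known source in an E10 trunk. The mean rate over 22 sections ran from 3.351 for Tnfsf14, a ligand of Ltbr and Tnfrsf14, to 10.75 ± 1.985 for Tnfrsf10b, the mouse death receptor for TRAIL. A comparison list of 26 genes of adult pancreas, pituitary, prostate, fat and mature lymphocytes (insulin, growth hormone, immunoglobulins and the like), named floor genes in the plots, had a median rate of 4.843, a lowest of 3.084 and a highest of 8.052. Against it, 4 members lay above every listed gene: Tnfrsf10b, Tnfrsf9 (9.737 ± 1.698), Tnfaip6 (8.71 ± 1.39) and Tnfrsf1a (8.475 ± 1.32). In all, 30 members lay above the median of that list and 9 lay below it. These are means over both embryos, and a member's place can differ between them. The mean of the list was 4.626 in knockout-labelled and 5.941 in wildtype sections, where Nfkbia was at 4.908 and 4.938. The members' median rate was 5.537 against 6.008 over the 984 genes outside the gates, and 13 members were above the latter. Rates of different genes also differ by how well their probes work, which the files do not give, and they are per transcript with no adjustment for length. Each of the 38 pairs of neighbours in this order differed by less than the larger of their 2 SDs.

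**Figure D1:**
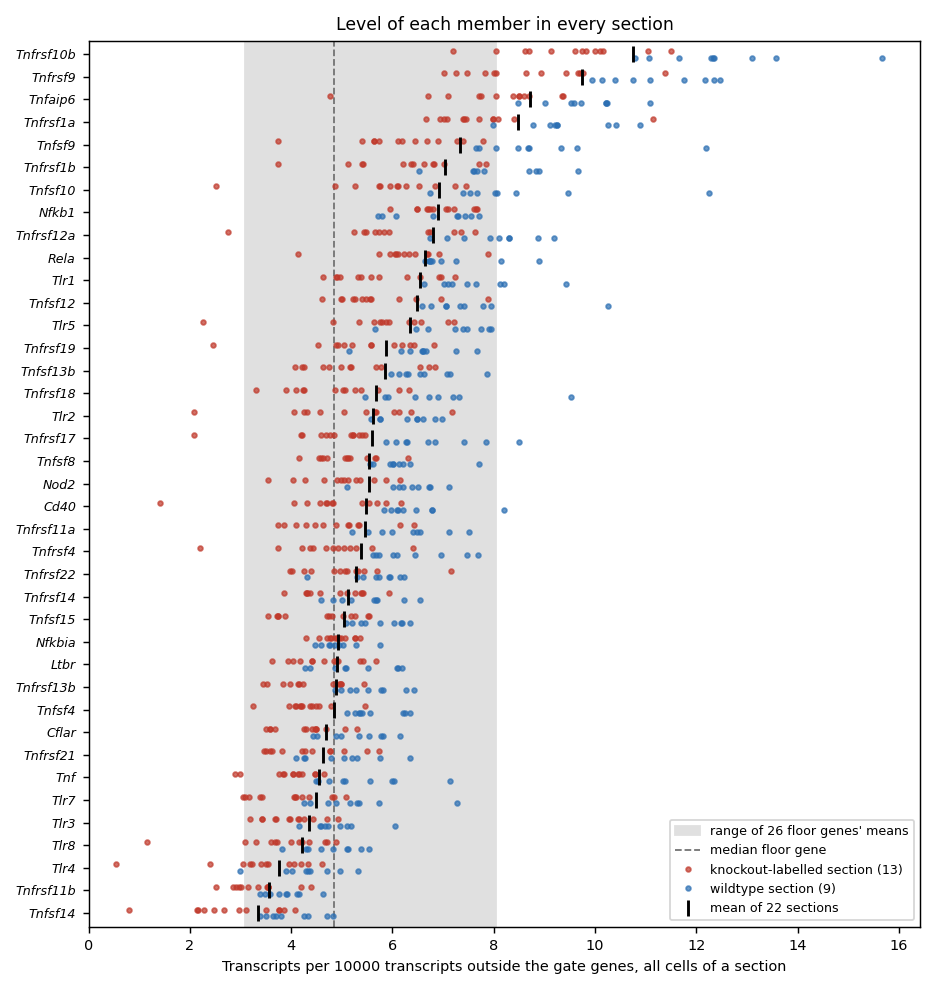
Rate per 10000 transcripts (horizontal axis) of each of the 39 genes in each of 13 knockout-labelled (red) and 9 wildtype (blue) sections, with a tick at the mean of 22, over the range (grey) and median (dashed) of the means of 26 floor genes. The means of Tnfrsf10b, Tnfrsf9, Tnfaip6 and Tnfrsf1a lie right of the highest floor gene at 8.052, and those of 9 members lie left of the floor median of 4.843.

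Among the ligands, Tnfsf9 (the 4-1BB ligand of T-cell costimulation) had the highest rate at 7.334 ± 1.802, and Tnfsf10 (TRAIL) followed at 6.919 ± 1.869. Tnf itself stood at 4.55 ± 0.982, under the median of the comparison list. Tnfsf12 (TWEAK) was at 6.49 ± 1.338 and Tnfsf13b (the B-cell factor BAFF) at 5.854 ± 1.064. The other ligands, Tnfsf8, Tnfsf15, Tnfsf4 and Tnfsf14, lay between 3.351 and 5.538.

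The receptors spanned the whole range, from the osteoprotegerin gene Tnfrsf11b at 3.564 ± 0.540 to Tnfrsf10b. Tnfrsf1a, the death-domain receptor of TNF, exceeded Tnf in 22 of 22 sections, and Tnfrsf1b, the receptor without a death domain, exceeded it in 21 of 22 at 7.036 ± 1.398. Of 12 ligand and receptor pairs set side by side, which share 7 ligands, 8 had the higher rate at the receptor. Tnfrsf10b exceeded its ligand Tnfsf10 in 22 of 22 sections, whereas the decoy receptors Tnfrsf22 (5.284 ± 0.791) and Tnfrsf11b exceeded it in 2 and 1 of 22. Tnfrsf9 exceeded Tnfsf9 in 22 of 22 sections. Tnfsf14 was exceeded by both Tnfrsf14 (5.116 ± 0.689) and Ltbr (4.906 ± 0.726) in 22 of 22. These genes lie within the range of the comparison list (3.084 to 8.052), and rates of different genes also differ by how well their probes work. The TWEAK receptor Tnfrsf12a (6.802 ± 1.475) was above its ligand in 15 of 22 sections and Tnfrsf4 (OX40) above Tnfsf4 in 18 of 22. The BAFF-binding receptors Tnfrsf13b and Tnfrsf17 were above Tnfsf13b in 3 and 12 of 22 sections.

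The median was 5.538 over the ligands, 5.478 over the receptors and 5.013 over the sensors, a difference not tested. Tlr1, which senses bacterial lipoproteins with Tlr2, was the highest at 6.551 ± 1.263, and the flagellin receptor Tlr5 followed at 6.346 ± 1.265. Tlr4, the receptor for lipopolysaccharide, was the lowest at 3.771 ± 1.008, and 4 of the 8 sensors lay below the median of the comparison list. Among the core genes, Nfkb1 (6.903 ± 0.624) and Rela (6.644 ± 0.935) were above the panel median, while Nfkbia (4.92 ± 0.330) and Cflar (4.691 ± 0.749), the inhibitor of caspase-8 activation at death receptors, were below it.

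Nfkbia and Tlr2 are shown here by the 250 bases before their start, as examples from the 4 genes that held the NF-kB consensus (kB) there. Nfkbia is also one of the genes on which the genotype comparison turns. Sequences are those of RefSeq on GRCm38.p6, minus strand for both, 5' to 3', with the kB consensus match in capitals: chr12:55492648-55492897 for Nfkbia, where the match on the opposite strand covers 29 to 20 bases before the start, and chr3:83841609-83841858 for Tlr2, where overlapping matches on both strands cover 173 to 163 bases before it.
Nfkbia: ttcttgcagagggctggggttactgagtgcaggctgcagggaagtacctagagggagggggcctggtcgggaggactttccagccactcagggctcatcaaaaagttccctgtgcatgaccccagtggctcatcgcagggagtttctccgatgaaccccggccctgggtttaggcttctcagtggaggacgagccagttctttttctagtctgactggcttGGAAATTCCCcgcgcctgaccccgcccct
Tlr2: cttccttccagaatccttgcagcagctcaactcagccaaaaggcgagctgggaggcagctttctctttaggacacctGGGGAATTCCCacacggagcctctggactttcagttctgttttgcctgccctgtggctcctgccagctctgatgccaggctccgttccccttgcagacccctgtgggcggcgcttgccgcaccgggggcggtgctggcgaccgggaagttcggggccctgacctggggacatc
Promoters were matched for 29 of the 39 genes (33 promoters), and 4 genes held the consensus on either strand: Nfkbia, Tlr2, Tlr3 and Tnfrsf9. Of all 32851 promoters of that length, 3.9% held it. The binding element of the targeted nuclear receptors, NBRE (AAAGGTCA, either strand), was in 1.34% of all promoters and in 0 of the 33. A match is a description of letters in this window. Genes with no promoter entry were Tnfrsf22, Tlr7, Tnfsf4, Tnfrsf10b, Tnfsf12, Tlr4, Tnfsf9, Nfkb1, Tnfrsf11b and Cd40.

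Over all 22 sections, Nfkbia and Nfkb1 varied less than any other member. The coefficient of variation (CV, SD over mean) of the Nfkbia rate across 22 sections was 6.702%, the smallest of the 984 genes, and counting error alone would give 7.488%. For Nfkb1 it was 9.032%, with 6.322% from counting, and 0.61% of the panel had a smaller value. The next members were Tnfrsf14 at 13.47% and Rela at 14.08%. The median member had a CV of 18.47% and the median panel gene 18.58%, and the comparison list ranged from 11.03% to 28.08%. The most variable member was Tnfsf14 at 28.62%. These CVs run over both genotypes, so a gene whose rate differs between the embryos gains spread, and they are a description. Within the 13 knockout-labelled sections Nfkbia (6.065%) and Nfkb1 (7.409%) were again the least variable members. Within the 9 wildtype sections Nfkbia was at 7.893%, with 1 member below it (Tnfaip6, 7.784%), and Nfkb1 at 11.49%, with 21 members below it.

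The comparison of the embryos asked which of these genes differ with the Nr4a label. Nfkb1 and Nfkbia were higher in the knockout-labelled sections relative to the rest of the panel, and edgeR called none of the 39 genes lower (DESeq2 called Tnfrsf17 and Tnfsf9 lower, as given below). Their own rates were level between the embryos, while nearly all other members, like the median panel gene, had lower rates in the knockout-labelled sections. The edgeR fit scales each section by a trimmed mean over genes (TMM), so its fold changes are relative to the bulk of the panel. In these sums, fewer cells of a type and less RNA per cell cannot be told apart.

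For Nfkb1, the rate was 5.946 at the lowest, 6.804 at the median and 7.667 at the highest of the 13 knockout-labelled sections, and 5.717, 7.28 and 7.713 in the 9 wildtype sections. Its fitted log2 fold change was 0.29 (SE 0.07, 1.223-fold, edgeR quasi-likelihood test, Benjamini-Hochberg adjusted p = 0.003505). For Nfkbia, the lowest, median and highest rates were 4.3, 4.912 and 5.37 against 4.463, 4.862 and 5.758 in wildtype. Its fitted log2 fold change was 0.25 (SE 0.07, 1.192-fold, adjusted p = 0.007908). The ranges of both genes overlapped almost entirely. Called genes made up 9.82% of the 998 tested for higher and 2.71% for lower, so the members' 2 higher and 0 lower of 39 were a smaller share than the panel's in each direction. At an unadjusted p under 0.05 there were 6 members, where 25.95% of the panel was so, and DESeq2 called 2 higher and 2 lower, where it called 11.5% and 4.31% of the panel.

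The direction of these calls rests on the scaling. With library sizes alone, the log2 fold change was 0.02 for Nfkb1 (adjusted p = 0.8127) and -0.02 for Nfkbia (adjusted p = 0.8197), and 35 of the 39 members were then called lower, where 72.0% of the panel was. That scaling moved the median of all 998 genes to -0.30, against -0.03 with TMM. The 10 genes with the most transcripts, among them Ppia, Hmgb2 and the hemoglobin alpha genes, took 19.7% ± 1.641 of all transcripts in the knockout-labelled sections and 13.8% ± 1.547 in wildtype. Their part in the result was not tested. The 37 members other than Nfkb1 and Nfkbia averaged 5.233 ± 0.393 in knockout-labelled sections and 6.68 ± 0.490 in wildtype, a difference shared by the comparison list (4.626 ± 0.466 against 5.941 ± 0.589) and by the median panel gene (5.472 ± 0.351 against 6.817 ± 0.390, ranges 4.757 to 6.011 and 6.332 to 7.713).

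**Figure D2:**
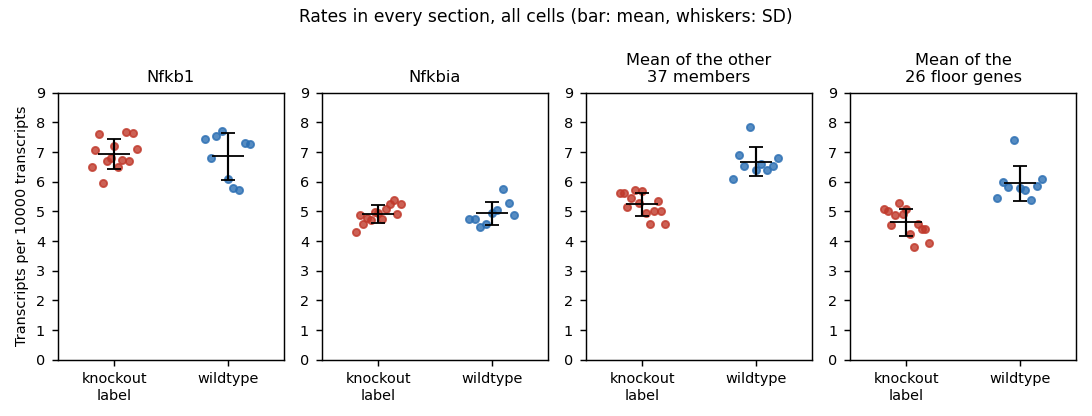
Rate per 10000 transcripts (vertical axis, from 0) in each of 13 knockout-labelled (red) and 9 wildtype (blue) sections for Nfkb1, Nfkbia, the mean of the other 37 members and the mean of the 26 floor genes, with bars at the mean and whiskers of 1 SD. Nfkb1 and Nfkbia lie at the same height in both embryos (means 6.936 and 6.854, 4.908 and 4.938), while the other 37 members (5.233 and 6.68) and the floor genes (4.626 and 5.941) lie lower in the knockout-labelled sections.

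**Figure D3:**
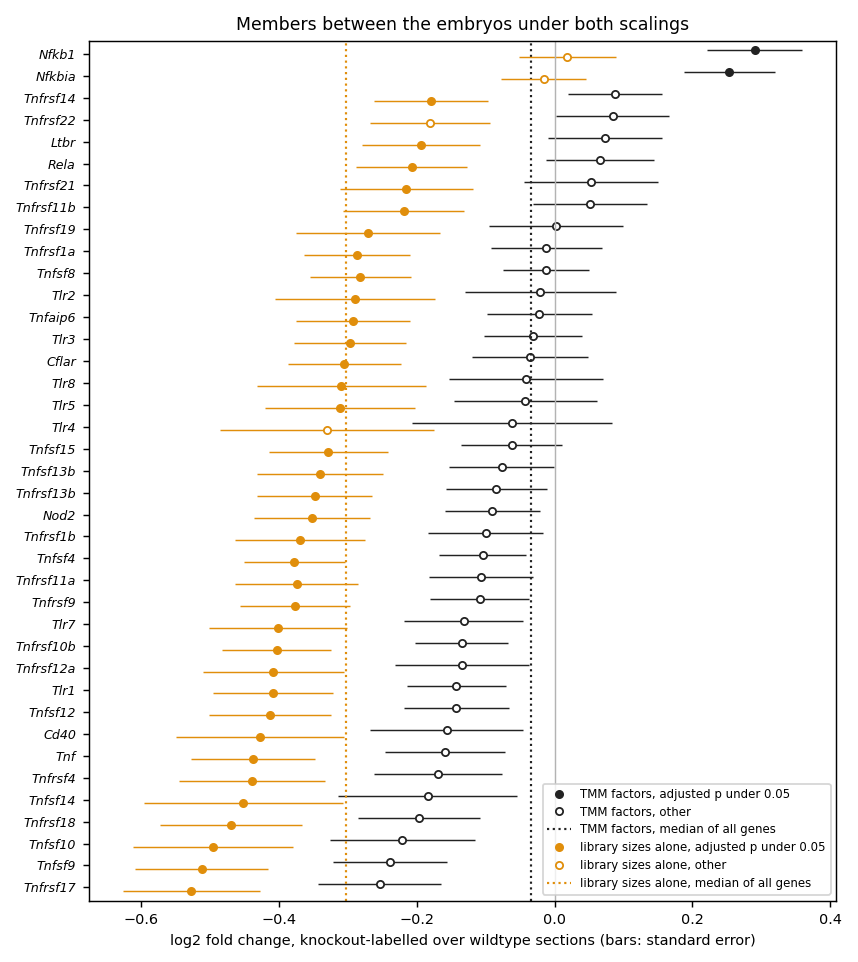
Log2 fold change, knockout-labelled over wildtype sections, of each of the 39 genes under TMM scaling and with library sizes alone, with bars of 1 SE, filled points at an adjusted p under 0.05 and dotted lines at the median of all genes. Under TMM (black) the members scatter about a median of -0.08 with Nfkb1 and Nfkbia at the top, and with library sizes alone (orange) these 2 sit near 0 while the others lie below 0.

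Among the ligands, Tnf ranged over 2.897, 4.046 and 4.657 (lowest, median and highest) in the knockout-labelled sections and over 4.5, 5.056 and 7.128 in wildtype. In 12 of 13 knockout-labelled sections it was below every wildtype section. At least 12 sections were so placed for 6 of the 39 members, for 8.84% of the panel and for 5 of the 26 comparison genes, and the median panel rate was so in all 13. Relative to the panel its log2 fold change was -0.16 (SE 0.09), which did not pass the test (edgeR adjusted p = 0.241), and over sections numbered 2 in the file names alone it was 0.03. Tnfsf9 ranged over 3.733, 6.182 and 7.786 against 7.643, 8.676 and 12.2, with -0.24 (SE 0.08, edgeR adjusted p = 0.05526). Its ranges overlapped by a single knockout-labelled section.

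Among the receptors, Tnfrsf17, which binds BAFF and APRIL on plasma cells, was the 1 member of 39 whose section ranges did not overlap: 2.081, 4.852 and 5.456 against 5.882, 6.694 and 8.494. Of the 984 panel genes 3.86% had every knockout-labelled section below every wildtype section. Its fitted log2 fold change was -0.25 (SE 0.09, edgeR adjusted p = 0.05755). DESeq2 called both Tnfrsf17 and Tnfsf9 lower, as did edgeR when knockout section 13 or wildtype section 7 was left out (4 calls each, while 16.13% and 12.42% of all genes were called). Knockout section 13 held the lowest knockout value of 16 members, and the panel's share was not counted. This section also had the lowest total (169027 transcripts) and a comparison-list mean of 3.921, against 4.626 over the 13 sections. Tnfrsf1a ranged over 6.661, 7.463 and 11.14 against 7.995, 9.246 and 10.89, with a log2 fold change of -0.01 (SE 0.08, edgeR adjusted p = 0.9329).

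Rela, the partner of Nfkb1 in the common NF-kB dimer, ranged over 4.131, 6.228 and 7.894 in the knockout-labelled sections and over 6.643, 6.79 and 8.888 in wildtype. Relative to the panel its log2 fold change was 0.07 (SE 0.08, edgeR adjusted p = 0.6155). None of the 8 sensors was called by edgeR, where 9.82% of the panel was higher and 2.71% lower, or by DESeq2 (11.5% and 4.31%). At an unadjusted p under 0.05 there were 0 sensors and 25.95% of the panel. The sensors' median log2 fold change was -0.05. The ligands had a median of -0.14 and the receptors -0.10, against -0.03 over all genes and -0.08 over the comparison list, of which 0 were higher and 2 lower of 26. For all 39 members the interval of 1.96 SE either side lay within 1.5-fold in both directions.

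Other genes of the pathway were read against the panel's 9.82% higher and 2.71% lower. Of 9 further sensors and partners, none was called, with 1 at an unadjusted p under 0.05 (25.95% of the panel). Of 18 genes known to be driven by NF-kB, Ier3, an early response gene, was called lower (-0.27, SE 0.07, edgeR adjusted p = 0.007219), and the adhesion gene Icam1 and the chemokines of the list were not called.

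Slides held 1 genotype each, so slide and genotype cannot be told apart, and file names carry a number 1 or 2 that may stand for a slide. Nfkb1 had a log2 fold change of 0.14 (edgeR adjusted p = 0.4277) over sections numbered 1 and 0.44 (adjusted p = 0.007495) over those numbered 2. Nfkbia had 0.27 (adjusted p = 0.1015) and 0.29 (adjusted p = 0.02874). With the slide as a random block, limma kept Nfkb1 (adjusted p = 0.01341) and Nfkbia (adjusted p = 0.01904) past the threshold.

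To see in which cells these genes were found, cells were grouped by marker counts above their section's background. There were 6 gates, holding 532 Cdh5 cells, 2761 hemoglobin cells, 491 Tagln and Acta2 cells, 749 Twist1 cells, 188 cells with macrophage genes (complement C1q and Csf1r) and 383 with epithelial genes (Epcam, Cdh1, Krt8 and Krt18). The other cells, apart from those in several gates, were ungated (32215 cells). Genes outside the gate that are known for the same cell type were at least 2-fold higher than in ungated cells for 7 of 8 in the Cdh5 gate, 2 of 2 in the hemoglobin gate and 4 of 5 in the Tagln and Acta2 gate. They were so for 0 of 5 in the Twist1 gate, 2 of 7 in the macrophage gate and 1 of 4 in the epithelial gate, so these last 3 groups are named by their gate genes alone. In the macrophage gate they were so for 5 of 7 in the knockout-labelled sections (median ratio 2.132) and 0 of 7 in wildtype (1.368), and the part of this in the genotype values of that gate was not tested. Gated cells also held more transcripts: the median over sections was 382.5 in Cdh5 cells, 292 in hemoglobin cells, 485.5 in Tagln and Acta2 cells and 172.8 in ungated cells.

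The hemoglobin cells, which carry the main product of red cells, differed in the most members: 13 members were higher than in ungated cells of the same sections and 2 were lower. Tnfsf14, Tnfrsf17, Tnfrsf21, Tnf and Tnfrsf10b led the rise, at 1.25 to 1.369-fold, and Nfkb1 and Tlr4 fell. None of the 15 reached 1.5-fold. On the whole panel 29.8% of 984 genes were called higher and 24.1% lower, and of the comparison list 10 of 26 were higher and 0 lower. The median log2 fold change was 0.13 over the members, 0.10 over the comparison list and 0.05 over all genes, so the members' share of higher genes was near that of the panel and of genes with no known source in these cells. With library sizes alone, which moved the median of all genes to 0.22, 25 members were higher and 0 lower, against 53.9% and 14.3% of the panel. Among cells of 200 to 600 transcripts alone, 9 were higher and 0 lower, against 23.6% and 20.1%.

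Tnf had rates of 3.098, 6.226 and 12.08 (lowest, median and highest section) in hemoglobin cells and 2.785, 4.348 and 6.599 in ungated cells, and was higher in 19 of 22 sections (log2 fold change 0.34, SE 0.09, edgeR adjusted p = 0.001245). Tnfsf14 had 0.7644, 5.536 and 8.761 against 0.8393, 3.387 and 4.74, higher in 18 of 22 (0.45, SE 0.10, adjusted p = 9.983e-05). In both ligands the ranges overlapped while the medians differed.

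Tnfrsf17 had rates of 4.424, 8.358 and 13.5 in hemoglobin cells against 1.602, 5.223 and 8.099 in ungated cells, higher in 20 of 22 sections (0.43, SE 0.08, edgeR adjusted p = 5.737e-06). Tnfrsf21, the death receptor DR6, had 2.546, 6.902 and 11.28 against 2.935, 4.426 and 5.417, higher in 18 of 22 (0.43, SE 0.09, adjusted p = 8.706e-05). Tnfrsf10b had 4.131, 15.61 and 21.32 against 7.453, 10.05 and 14.82, higher in 20 of 22 (0.32, SE 0.07, adjusted p = 8.805e-05). These 3 receptors, with Tnf and Tnfsf14, were the 5 members called higher under every one of 8 other settings. The share of the panel called so under all 8 was not counted, so this count is no result about the family.

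Rela was higher in 20 of 22 sections, with rates of 4.938, 8.391 and 12.24 against 4.213, 6.496 and 8.438 (0.22, SE 0.07, edgeR adjusted p = 0.009381). Nfkb1 went the other way, with 2.779, 6.136 and 9.052 against 5.608, 7.097 and 8.049, lower in 14 of 22 sections (-0.30, SE 0.08, adjusted p = 0.001146). Nfkbia followed Nfkb1 in sign without passing the test (-0.18, adjusted p = 0.1204), and Tnfrsf1a did not differ beyond its error (0.00, SE 0.08, adjusted p = 0.9622). The other members called higher were Tnfrsf18, Tnfrsf14, Tnfsf9, Tnfsf10, Tlr2, Tnfrsf13b and Tnfrsf12a, at 1.139 to 1.204-fold.

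Tlr4 had rates of 0.7644, 3.565 and 5.84 in hemoglobin cells against 0.3815, 4.079 and 5.64 in ungated cells and was lower in 14 of 22 sections (-0.32, SE 0.10, edgeR adjusted p = 0.008884). Neither fall was called among cells of 200 to 600 transcripts, where Nfkb1 was at -0.21 and Tlr4 at -0.25, nor with library sizes alone, where they were at -0.12 and -0.14. Of the genes driven by NF-kB 7 of 18 were higher and none lower, and of the further sensors 3 of 9 were higher and none lower, where the panel had 29.8% higher and 24.1% lower.

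**Figure D4:**
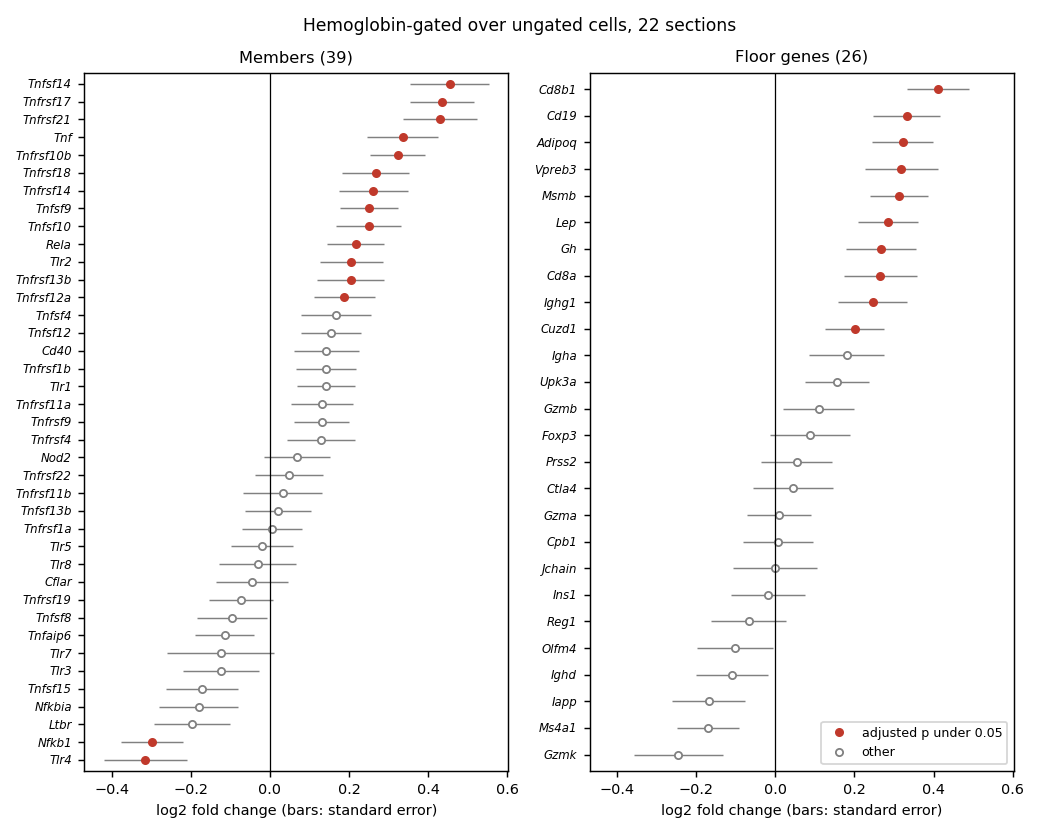
Log2 fold change of hemoglobin cells over ungated cells of the same 22 sections (horizontal axis, bars of 1 SE) for the 39 members on the left and the 26 floor genes on the right, with filled points at an edgeR adjusted p under 0.05. Of the members 13 filled points lie right of 0 and 2 (Nfkb1 and Tlr4) left of it, and of the floor genes 10 lie right and 0 left.

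In Cdh5 cells, the endothelium, edgeR called a single member different from ungated cells. Tnfrsf18 (GITR, a costimulatory receptor of T cells) was lower, with rates of 0, 3.273 and 7.667 against 2.978, 5.395 and 7.553, and lower in 17 of 20 sections. Its log2 fold change was -0.65 (SE 0.20, 0.637-fold, edgeR adjusted p = 0.01256) on 73 transcripts in all. In the 4 sections at 0, a count of 0 allows a rate of up to 2.905 to 9.957. Of the panel 8.64% was called higher and 7.01% lower here, against 0 and 1 of the 39 members. With DESeq2 and with library sizes alone, Tlr1 was called lower as well (-0.48, adjusted p = 0.04581, and -0.50, adjusted p = 0.0306), where 8.94% and 11.6% of the panel were lower. The Tnfrsf18 call was lost with a looser gate and with cells of several gates counted in each. It was also lost in either genotype alone and among cells of 200 to 600 transcripts.

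Nfkb1, Nfkbia and Ltbr, the lymphotoxin beta receptor, had pooled rates of 7.512, 5.443 and 6.163 in Cdh5 cells, against 6.864, 4.958 and 4.906 in ungated cells. In the knockout-labelled sections these were 8.373, 5.439 and 6.513 against 6.902, 4.984 and 4.557. In wildtype they were 6.055, 5.449 and 5.57 against 6.814, 4.923 and 5.372, so Nfkb1 was lower in Cdh5 cells there. The test of gate by genotype, given below, called no member. None of these genes passed the test against ungated cells: Ltbr was higher in 14 of 20 sections with a log2 fold change of 0.40 (SE 0.17, edgeR adjusted p = 0.108), Nfkb1 had 0.17 (SE 0.16, adjusted p = 0.608) and Nfkbia 0.19 (SE 0.18, adjusted p = 0.6305). Of the genes driven by NF-kB, Icam1 was called higher in Cdh5 cells (0.42, SE 0.15, edgeR adjusted p = 0.03062), the one call among 18, where 8.64% of the panel was higher and 7.01% lower.

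In Tagln and Acta2 cells, which carry contractile genes of smooth muscle, Cd40 was lower than in ungated cells, and no other member was called. Its rates were 0, 3.228 and 7.065 against 1.221, 5.331 and 7.251, lower in 18 of 20 sections (-0.57, SE 0.19, 0.673-fold, edgeR adjusted p = 0.0293) on 77 transcripts, and the section at 0 allows a rate of up to 3.062. The panel had 9.65% higher and 4.07% lower. The call was lost within each genotype alone and among cells of 200 to 600 transcripts. Nfkb1 had a fitted 0.29 (SE 0.15, adjusted p = 0.2148) in these cells.

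In the remaining gates no member was called. In Twist1 cells edgeR and DESeq2 called 0, while the panel had 7.01% higher and 1.93% lower. At an unadjusted p under 0.05 there were 3 members, 1 higher and 2 lower, where the panel had 10.06% higher and 7.622% lower. The nearest was Tnfrsf19 (TROY), with rates of 2.979, 5.837 and 21.5 against 2.518, 5.94 and 7.15 and a log2 fold change of 0.41 (SE 0.15, edgeR adjusted p = 0.06219). It was higher in 11 of 21 sections only.

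In cells with macrophage genes both tools called 0, where the panel had 0.203% higher and 1.52% lower. At an unadjusted p under 0.05 there were 0 members and 9.045% of the panel. Tnfsf9 came nearest, higher in 8 of 9 sections with 0.54 (SE 0.29, edgeR adjusted p = 0.5777). The median SE was 0.37, and for 34 of 39 members the interval excluded a rise of 2-fold. None of the 7 Toll-like receptors was called in these cells. Their log2 fold changes ran from -0.35 (SE 0.39) for Tlr2 to 0.36 (SE 0.30) for Tlr5.

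In cells with epithelial genes both tools called 0, where the panel had 2.34% higher and 1.83% lower. At an unadjusted p under 0.05 there were 6 members, all lower, where the panel had 5.081% higher and 7.52% lower. The nearest was Tnfrsf14, the receptor HVEM, with 0, 3.077 and 8.07 against 3.95, 4.907 and 6.318, lower in 13 of 15 sections (-0.68, SE 0.27, edgeR adjusted p = 0.2031). In its 2 sections at 0, a count of 0 allows up to 4.128 and 5.752. In the Cdh5, Tagln and Acta2, Twist1 and epithelial gates the interval excluded a rise of 2-fold for all 39 members. A fall of 2-fold was excluded for 38 members in the Cdh5 gate, 39 in the Tagln and Acta2 and Twist1 gates, and 34 in the epithelial gate.

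**Figure D5:**
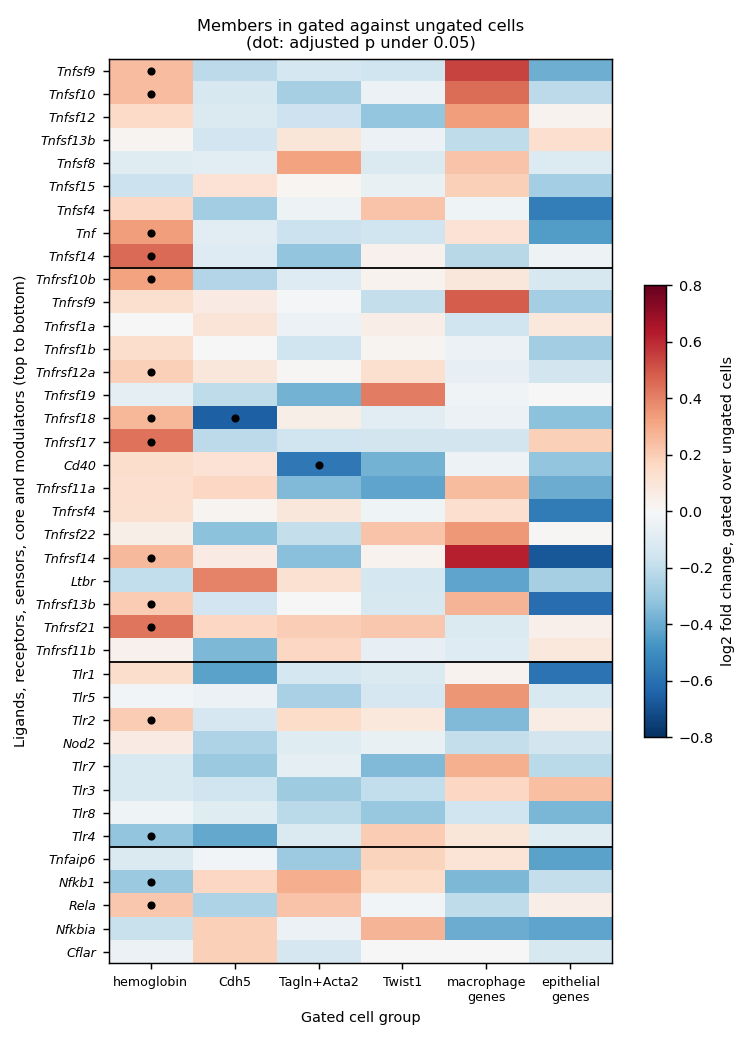
Log2 fold change of each of the 39 genes (rows) in each of the 6 gated groups (columns) against ungated cells of the same sections, as a colour scale from blue (lower) to red (higher), with a dot where the edgeR adjusted p is under 0.05. Dots stand in the hemoglobin column (15), at Tnfrsf18 in the Cdh5 column and at Cd40 in the Tagln and Acta2 column, and nowhere else.

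By pooled rate, Tnf was at 3.914 in Cdh5 cells, 6.419 in hemoglobin cells, 3.431 in Tagln and Acta2 cells, 3.306 in Twist1 cells, 5.421 in macrophage-gene cells, 3.105 in epithelial-gene cells and 4.382 in ungated cells. The comparison list moved between the same groups, with a median gene at 6.202 in hemoglobin cells, 5.077 in macrophage-gene cells, 4.734 in ungated cells and 4.039 in Cdh5 cells.

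Within single cell groups, edgeR called Nfkb1 and Nfkbia in ungated cells, which are the bulk of the sections and so of the fit over all cells. Relative to the panel, Nfkb1 had a log2 fold change of 0.25 there (SE 0.07, edgeR adjusted p = 0.0164) and Nfkbia 0.29 (SE 0.07, adjusted p = 0.006954). These were the 2 calls among 39 members, both higher, where 8.84% of the panel was higher and 2.13% lower. Mean rates in knockout-labelled and wildtype sections were 6.968 and 7.021 for Nfkb1, and 5.004 and 4.83 for Nfkbia. With library sizes alone 33 members were called (76.1% of the panel). Over sections numbered 1 alone 0 were called (3.25%), and over those numbered 2 alone 1 was (9.86%). In hemoglobin cells edgeR and DESeq2 called 0 of 39 members, and 3.19% of the panel was called. At an unadjusted p under 0.05 there was 1 member and 12.23% of the panel. Nfkb1 had 0.25 (SE 0.17, adjusted p = 0.6631) there and Nfkbia -0.15 (SE 0.19, adjusted p = 0.8704). The nearest call was Tnfrsf18, lower in knockout-labelled sections by the fit (-0.49, SE 0.16, adjusted p = 0.08127).

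The small gates left most members with too few transcripts to pass the filter: 2 were tested in Tagln and Acta2 cells, 1 in Twist1 cells and 0 in the Cdh5, macrophage and epithelial gates. Of those tested none was called, where 0.917% and 6.32% of the panel were. Without the filter all 39 were tested in each gate and edgeR called 0 (DESeq2 was run with the filter alone). The panel then had 1.22% in Cdh5 cells, 0.203% in Tagln and Acta2 cells, 1.32% in Twist1 cells, 0.305% in macrophage-gene cells and 0% in epithelial-gene cells, and the members at an unadjusted p under 0.05 numbered 1, 2, 1, 1 and 1, where the panel had 8.435%, 6.402%, 8.74%, 5.081% and 6.504%. In Cdh5 cells the nearest was Nfkb1, with a fitted 0.63 (SE 0.31, adjusted p = 0.5676). On simulated counts of this size in Cdh5 cells, 13.89% of 1.5-fold and 53.26% of 2-fold changes were called, so a 1.5-fold difference between genotypes was mostly not detectable at this depth.

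No member's cell-group difference was shown to depend on the genotype label. The test of gate by genotype called 0 of 39 members in each of the 6 gates with edgeR, where 0% of the panel was called in the Cdh5, Tagln and Acta2, macrophage and epithelial gates, 0.305% in the hemoglobin gate and 0.102% in the Twist1 gate. DESeq2 was not run for this term. Members at an unadjusted p under 0.05 numbered 0 in Cdh5 cells, 2 in hemoglobin cells, 1 in Tagln and Acta2 cells, 1 in Twist1 cells, 2 in macrophage-gene cells and 0 in epithelial-gene cells, where the panel had 6.402%, 6.707%, 4.98%, 3.354%, 5.183% and 4.167%. In hemoglobin cells these were Nfkbia (-0.47, SE 0.20, adjusted p = 0.6465) and Tnfrsf18 (-0.35, SE 0.17, adjusted p = 0.6865). There the interval of 1.96 SE excluded a difference of 2-fold in either direction for all 39 members. A 2-fold rise and a 2-fold fall of the term were excluded for 32 and 31 of 39 members in Cdh5 cells, 27 and 31 in Tagln and Acta2 cells, 36 and 32 in Twist1 cells, 9 and 14 in macrophage-gene cells, and 23 and 17 in epithelial-gene cells. On simulated counts the test of Cdh5 by genotype called 23.96% of 1.5-fold changes, so differences of that size were mostly not detectable there.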

How the data were processed

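RNA was imaged in 22 sections (13 labelled knockout, 9 wildtype) and the tables list 998 genes (950 standard and 50 custom probes per the labels). The authors segmented cells and deposited raw transcript counts per cell and gene, unnormalized; the methods name AtoMx and Seurat. Cells with at least 10 transcripts of at least 10 genes were kept (5 left out). A cell passed a gate with at least 2 marker transcripts and an upper Poisson tail under 0.001 given its total and the section's marker rate. Cells in several gates entered no comparison. Counts were summed per section and cell group (at least 10 cells), gate genes left out where groups were compared, and tested by edgeR 4.0.16 (TMM, filterByExpr, robust quasi-likelihood) in R 4.3.3, with Benjamini-Hochberg adjustment over all genes tested and a threshold of 0.05. Gates were compared with ungated cells of the same section, with section as a block. Alternatives used DESeq2 1.42.0, limma 3.58.1, library sizes, filters, gates, slides and single sections; the range of 200 to 600 transcripts was chosen after seeing the data.

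Fully described genes were Tnf, Tnfrsf1a, Nfkb1, Rela, Nfkbia, every member called between genotypes, and up to 5 called members per gate with the largest change; members near the threshold were named after their values were seen. A gene of the pathway lists is not reported here. The members and lists were chosen with earlier results of these data known. Nothing in the labels says the sections are separate animals, so p-values measure the spread between sections of 1 embryo each. Limits at a count of 0 use 3 counts and cover counting error only. On simulated counts, edgeR called 97.96% of 1.5-fold changes between genotypes over all cells (998 genes) and 80.2% between Cdh5 and ungated cells (984 genes).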

Additional observations from a re-analysis of the deposited data

Results flagged for a closer look

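Among the 39 genes, each tested for a section apart from the other 8 of the 9 wildtype sections, 8 had such a section. Chance gives about 1 in 20 for a single gene, but genes share the sections, and 10.82% of all 998 genes had one. Wildtype section 4 was the high one for 7 of these 8 members: Tnfsf9 at 12.2, Tnfsf10 at 12.25, Tnfsf12 at 10.25, Tnfrsf18 at 9.52, Tnfsf8 at 7.713, Cd40 at 8.202 and Tlr7 at 7.274 transcripts per 10000. Over all genes this section was high and apart for 6.112% and the highest of the 9 for 42.08%. It was the highest of the 9 for 23 of the 39 members. The same section had the highest mean of the comparison list, 7.394, and the lowest total of the wildtype sections, 211614 transcripts. Their part in these values was not tested. Tnfrsf22 was low in wildtype section 3, at 4.314.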

How the results depend on the processing

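No paired analysis was possible because the labels give the embryos no shared replicate numbers. Between genotypes, 2 members were called, 35 with library sizes alone (77.9% of all genes), 4 with DESeq2 (15.8%), 0 over sections numbered 1 (5.51%), and 2 to 4 with single sections left out (10.4% to 16.1%). In ungated cells 33 were called with library sizes alone (76.1%), 0 over sections numbered 1 (3.25%) and 1 over those numbered 2 (9.86%). In hemoglobin cells 1 was called with library sizes alone (6.37%), and in Twist1 cells 1 at a gate tail of 0.01 (Tlr1, -0.70; 6.39%). Of the gates, hemoglobin had 25 calls with library sizes alone (68.2%), 7 in the knockout-labelled embryo (36.8%), 12 in wildtype (38.4%) and 9 among cells of 200 to 600 transcripts (43.7%). Cdh5 had 2 with library sizes alone (19.4%) or DESeq2 (16.9%), and 0 at a tail of 0.01 (16.4%), with cells of several gates (18.2%), in the knockout-labelled (12.8%) or wildtype embryo (7.11%), or among cells of 200 to 600 transcripts (10.2%). Tagln and Acta2 had 7 with library sizes alone (23.1%), 2 at a tail of 0.01 (14.02%), and 0 in the knockout-labelled (10.8%) or wildtype embryo (5.89%) or at 200 to 600 transcripts (7.02%). Twist1 had 5 with library sizes alone (17.6%). At a tail of 0.01, macrophage genes had 1 (Tnfrsf9, 0.52; 5.79%) and epithelial genes 1 (Tnfaip6, -0.46; 4.17%). With library sizes alone the sign turned over all cells for 8 members, Nfkbia (-0.0157), Rela (-0.21), Ltbr, Tnfrsf14, Tnfrsf22, Tnfrsf21, Tnfrsf11b and Tnfrsf19, and in ungated cells for Nfkb1 (-0.0032) among others. Signs also turned over sections numbered 2 for Tnf (0.0316) and Tnfrsf1a (0.14), and over those numbered 1 for Rela (-0.10). Tnfrsf1a stayed between -0.0571 and 0.01295 with single sections left out. The cause was not tested. The other 101 counts were within 1.5 times, and 78 levels moved by less than 1 SD. Cells of 200 to 600 transcripts could not be run for macrophage genes, nor sections numbered 1 for their genotype test. The small gates hold few cells, which limits what their tests could call, between genotypes most of all. On simulated counts of Cdh5 cells, 13.89% of 1.5-fold changes were called between genotypes and 80.2% against ungated cells.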
